A study of Homo sapiens with 9 samples.

Results

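Heparan sulfate is made and edited by a small set of Golgi and cell-surface enzymes, and 10 of their genes are described here in LN229 cells, an established human glioblastoma line, with and without CRISPR targeting of ARNT2. The genes are the chain polymerases EXT1 and EXT2, the N-deacetylase/N-sulfotransferases NDST1 and NDST2, the epimerase GLCE, the sulfotransferases HS2ST1, HS6ST1 and HS6ST2, and the endosulfatases SULF1 and SULF2. They were picked by function from a table of 19356 genes, by their symbols, at a time when the levels in all 3 groups and the differences between them were already known. Their levels and differences are therefore a description, and no p-value is given for any of them. All 10 were among the 16457 genes that passed the filter on low values, set at 10 for the antilog averaged over the 9 libraries.

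Polyadenylated RNA was sequenced in 3 libraries each of the ARNT2 knockout lines B3 and C4 and of wild-type LN229 (WT). All groups were grown in DMEM with 5% fetal bovine serum, and the lines differ by label only in genotype. B3 and C4 are each 1 knockout line, and whether the 3 samples per group were grown as separate cultures is not stated. ARNT2 encodes a transcription factor of the bHLH-PAS family, and the series asked about its part in how glioblastoma cells proliferate and differentiate. Values are log2 values as the authors deposited them, and the read depth is unknown. Replicates lay closer together at values under 6 than at 6 to 12, so differences of weakly expressed genes may be understated. In bulk RNA, fewer cells expressing a gene and less RNA per cell cannot be told apart.

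Heparan sulfate is a long sugar chain carried by core proteins such as syndecans and glypicans. The EXT1 and EXT2 proteins form the polymerase that extends the chain. NDST enzymes then replace acetyl groups on glucosamine with sulfate, GLCE turns glucuronic into iduronic acid, and HS2ST1 and the HS6ST enzymes add sulfate at the 2-O and 6-O positions. SULF1 and SULF2 act outside the cell and take 6-O-sulfate off finished chains. The sulfation pattern sets which growth factors, among them FGFs, VEGF and PDGF, a chain binds, and in glioblastoma SULF2 has been studied as a modifier of growth factor signalling.

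Upstream sequence is shown for the member with the largest difference, HS6ST2, for GLCE, the other member that was lower in both lines, and for 2 members in which the core recognised by bHLH-PAS dimers was found. The sequences are from RefSeq (GRCh38.p14), which gave start sites for 8 of the 10 members. Each runs 5′ to 3′ on the strand of its gene, and capitals mark matches to ACGTG or GCGTG on either strand, or to CACGTG, which holds ACGTG on both strands. The stretch for HS6ST2 is chrX:132961401-132961520 (minus strand), that for GLCE chr15:69160415-69160574 (plus strand), that for HS2ST1 chr1:86914555-86914614 (plus strand) and that for SULF2 chr20:47786143-47786170 (minus strand, upstream of start site 2 of 4 in RefSeq).
HS6ST2: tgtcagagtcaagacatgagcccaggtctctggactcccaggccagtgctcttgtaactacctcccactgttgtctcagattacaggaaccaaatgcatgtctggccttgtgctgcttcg
GLCE: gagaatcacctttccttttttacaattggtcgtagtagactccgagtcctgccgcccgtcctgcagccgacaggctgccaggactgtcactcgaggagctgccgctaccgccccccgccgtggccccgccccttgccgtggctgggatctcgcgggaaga
HS2ST1: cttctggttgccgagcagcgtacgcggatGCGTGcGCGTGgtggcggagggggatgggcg
SULF2: ttacgcacacaCACGTGcacacaaggct

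In the 250 bases before each start site, ACGTG or GCGTG lay in 4 of the 14 windows of the members (28.6%), against 43.2% of all 35116 RefSeq windows of that length. Windows of the same gene can overlap, as those of EXT2 and NDST2 did, and by gene 3 of 8 members held a match. HS2ST1 held GCGTG at -246, -51 and -45 from its start site, EXT2 at -176 from the first of its 3 start sites, and SULF2 held ACGTG matches before start site 2 and GCGTG before start site 3. The windows of HS6ST2, GLCE, HS6ST1, NDST1 and NDST2 held no match, which says only that these letters are not in these windows. CACGTG was in 6.34% of all windows, and among the members only in the SULF2 window shown. GC content of the members' windows lay between 48.0%, in HS6ST2, and 81.2%, against a median of 58.0% over all windows.

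ARNT2 itself was reduced in B3 and in C4. It had log2 values of 11.91, 11.90 and 11.86 in B3, of 12.22, 12.15 and 12.05 in C4, and of 13.56, 13.59 and 13.58 in WT, so that its RNA stood at 31.1% and 37.1% of the WT level. For B3 as for C4, p was 0.1 (exact permutation test, two-sided), which is as low as 3 libraries against 3 can give. Of the glial and glioma markers, S100B (16.1 to 16.5), VIM (17.8 to 18.2), CD44 (16.5 to 16.6), NES (15.3 to 15.5), SOX2 (12.2 to 12.5) and OLIG2 (11.5 to 11.9) lay above the library medians of 10.62 to 10.65, while GFAP (6.61 to 6.98) and AQP4 (3.91 to 3.99) lay far below them. Of the markers of other cell types, the immune genes PTPRC and CD3E and the neuronal gene RBFOX3 did not pass the filter, CD14, PECAM1, EPCAM and CDH1 stayed under 6, SYP reached 8.38, and VWF reached 8.95, CD68 10.99 and SNAP25 11.50.

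HS6ST2, which adds 6-O-sulfate to glucosamine, differed most among the 10 genes, with a level 2.73-fold lower in B3 and 3.22-fold lower in C4 than in WT. Its log2 values were 7.87, 7.98 and 7.81 in B3, 7.75, 7.56 and 7.63 in C4, and 9.44, 9.25 and 9.31 in WT. All 6 knockout libraries lay more than 1 log2 unit below every WT library, and the B3 libraries also lay above the C4 libraries. The difference was -1.45 ± 0.058 (SE, n = 3 libraries per group throughout) in B3 and -1.69 ± 0.058 in C4 on the log2 scale, or 36.7% and 31.1% of the WT level. By absolute size it ranked 12th of 16457 genes in B3 and 19th in C4. An antisense gene and a pseudogene lie within HS6ST2, and the strand setting of the counting is not given in the sources used here, so reads from them cannot be told apart from those of HS6ST2.

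HS6ST1, among the members the more abundant 6-O-sulfotransferase gene per exonic length, shared the direction of HS6ST2 in C4 but not in B3. Its log2 values were 12.53, 12.52 and 12.51 in B3, 12.05, 12.12 and 12.13 in C4, and 12.48, 12.40 and 12.41 in WT. Every B3 library lay above every WT library and every C4 library below. The difference from WT was 0.088 ± 0.029 in B3 and -0.33 ± 0.029 in C4, and C4 minus B3 was -0.42 ± 0.029. Taking antilogs per kilobase of exonic sequence, HS6ST2 made up 3.64% ± 0.20 of the summed level of the 2 genes in B3, 4.11% ± 0.38 in C4 and 9.86% ± 0.35 in WT (SD, n = 3 each). A further 6-O-sulfotransferase gene, HS6ST3, is not a member and is not in this share. Its mean log2 values were 9.05 in B3, 8.74 in C4 and 8.78 in WT. By limma HS6ST3 rose by 0.28 ± 0.048 in B3 (adjusted p = 4.44e-05) and was not called in C4 (adjusted p = 0.497). A processed pseudogene of HS6ST1 lies on chromosome 1 and may share reads with it, so the HS6ST1 values are uncertain to that extent.

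**Figure D1:**
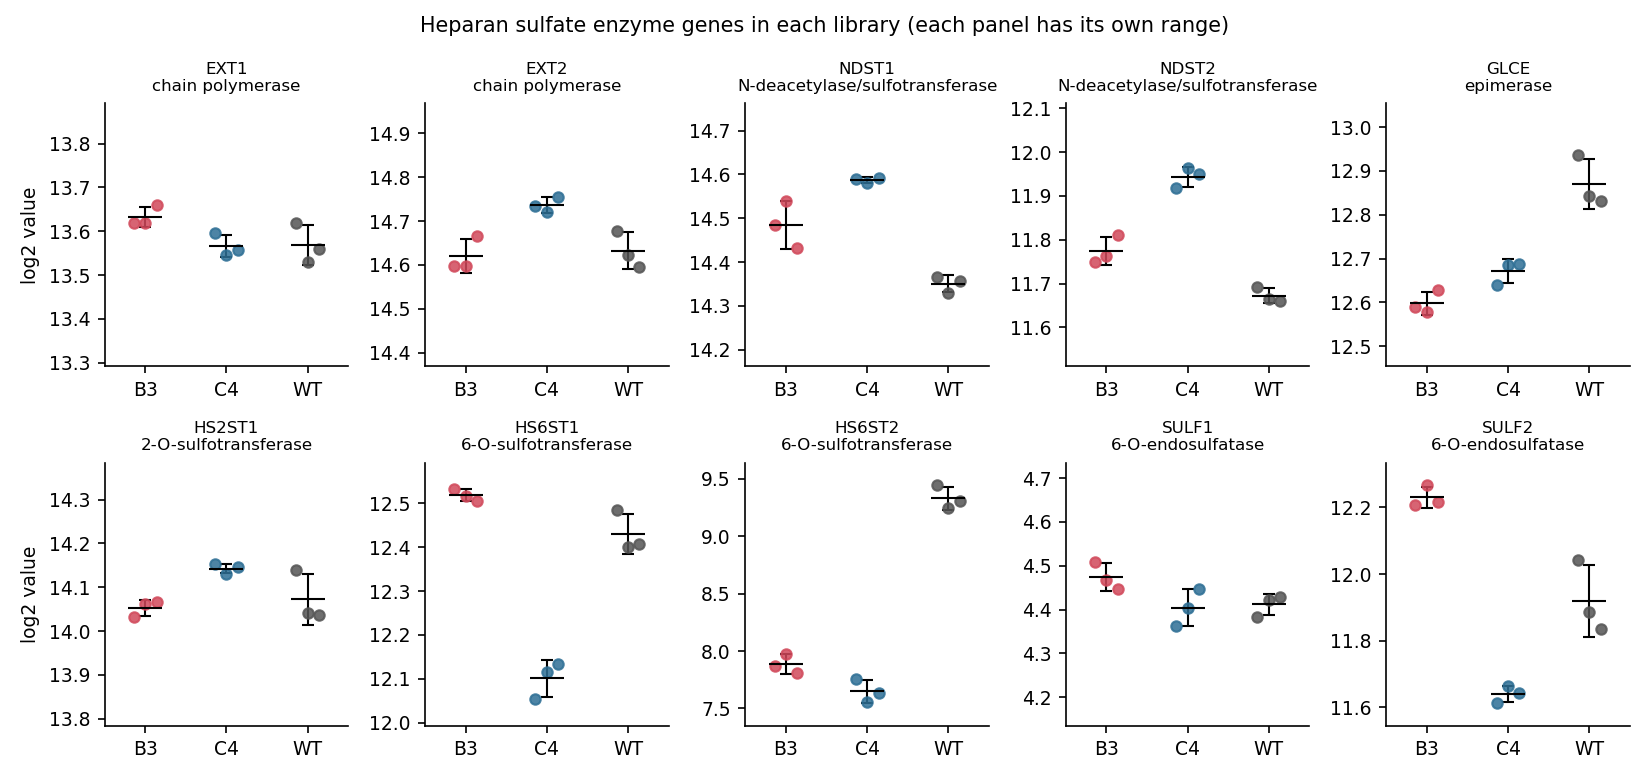
Deposited log2 value of each of the 10 genes in every library, with B3, C4 and WT from left to right; points are libraries, bars the group mean ± SD (n = 3), and each panel has its own vertical range. HS6ST2 lies at 7.56 to 7.98 in the knockout libraries, against 9.25 to 9.44 in WT, while HS6ST1 and SULF2 lie above WT in B3 and below WT in C4.

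SULF2, the endosulfatase that removes 6-O-sulfate, was higher in B3 and lower in C4. Its log2 values were 12.21, 12.27 and 12.22 in B3, 11.61, 11.66 and 11.64 in C4, and 12.04, 11.88 and 11.83 in WT. The 3 groups did not overlap, and WT spread most, with its first library highest. The difference from WT was 0.31 ± 0.038 in B3 and -0.28 ± 0.038 in C4. Between the lines SULF2 stood at 66.5% of the B3 level in C4, a difference of -0.59 ± 0.038. NCOA3, whose annotated span overlaps SULF2 on the other strand, differed from WT by -0.0032 ± 0.025 in B3 and 0.042 ± 0.025 in C4.

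SULF1, the paralogue of SULF2, was barely expressed. Its log2 values were 4.51, 4.47 and 4.45 in B3, 4.36, 4.40 and 4.45 in C4, and 4.38, 4.42 and 4.43 in WT. C4 and WT overlapped, and the B3 libraries lay just above WT. The difference was 0.063 ± 0.027 in B3 and -0.0076 ± 0.027 in C4, at a level where differences may be understated. SULF1 made up 0.327% ± 0.012 of the summed level of both sulfatase genes per exonic length in B3, 0.467% ± 0.011 in C4 and 0.388% ± 0.035 in WT (SD, n = 3 each).

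NDST1 and NDST2, which start sulfation of the chain, were higher in both lines, and more so in C4. NDST1 had log2 values of 14.48, 14.54 and 14.43 in B3, 14.59, 14.58 and 14.59 in C4, and 14.37, 14.33 and 14.36 in WT. NDST2 had 11.75, 11.76 and 11.81 in B3, 11.92, 11.96 and 11.95 in C4, and 11.69, 11.66 and 11.66 in WT. For both genes every C4 library lay above every B3 library, and every B3 library above every WT library. NDST1 differed from WT by 0.13 ± 0.025 in B3 and 0.24 ± 0.025 in C4, and NDST2 by 0.10 ± 0.029 and 0.27 ± 0.029. These are levels of 107% to 121% of WT, small beside the difference of HS6ST2. NDST2 made up 23.8% ± 1.0 of the summed NDST1 and NDST2 level per exonic length in B3, 24.7% ± 0.36 in C4 and 24.2% ± 0.21 in WT (SD, n = 3 each). NDST2 overlaps an annotated protein-coding gene on the same strand, with which it may share reads.

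GLCE, which makes the iduronic acid that gives the chain its flexibility, was lower in both lines. Its log2 values were 12.59, 12.58 and 12.63 in B3, 12.64, 12.68 and 12.69 in C4, and 12.94, 12.84 and 12.83 in WT. No knockout library reached a WT library. The difference was -0.27 ± 0.028 in B3 and -0.20 ± 0.028 in C4, or 82.8% and 87.1% of the WT level.

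The polymerase genes and HS2ST1 differed from WT by at most 0.10 on the log2 scale. EXT1 had log2 values of 13.62, 13.62 and 13.66 in B3, 13.60, 13.55 and 13.56 in C4, and 13.62, 13.53 and 13.56 in WT, and both lines overlapped WT, with differences of 0.063 ± 0.025 in B3 and -0.0033 ± 0.025 in C4. EXT2, its partner, had 14.60, 14.60 and 14.67 in B3, 14.73, 14.72 and 14.76 in C4, and 14.68, 14.62 and 14.59 in WT. C4 alone lay apart from WT for EXT2, at 0.10 ± 0.025, and B3 stood at -0.012 ± 0.025. HS2ST1, which sulfates iduronic acid, had 14.03, 14.06 and 14.07 in B3, 14.15, 14.13 and 14.15 in C4, and 14.14, 14.04 and 14.04 in WT. Both lines overlapped WT for HS2ST1, with differences of -0.019 ± 0.025 in B3 and 0.070 ± 0.025 in C4. HS2ST1 overlaps another annotated protein-coding gene on its strand, with which it may share reads.

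Gene spans in GENCODE 29 were chromosome 11, 44095549 to 44245429 (EXT2), chromosome 5, 150485818 to 150558211 (NDST1), chromosome 10, 73801911 to 73811798 (NDST2), and chromosome 1, 86914648 to 87109998 (HS2ST1), all in GRCh38.

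**Figure D2:**
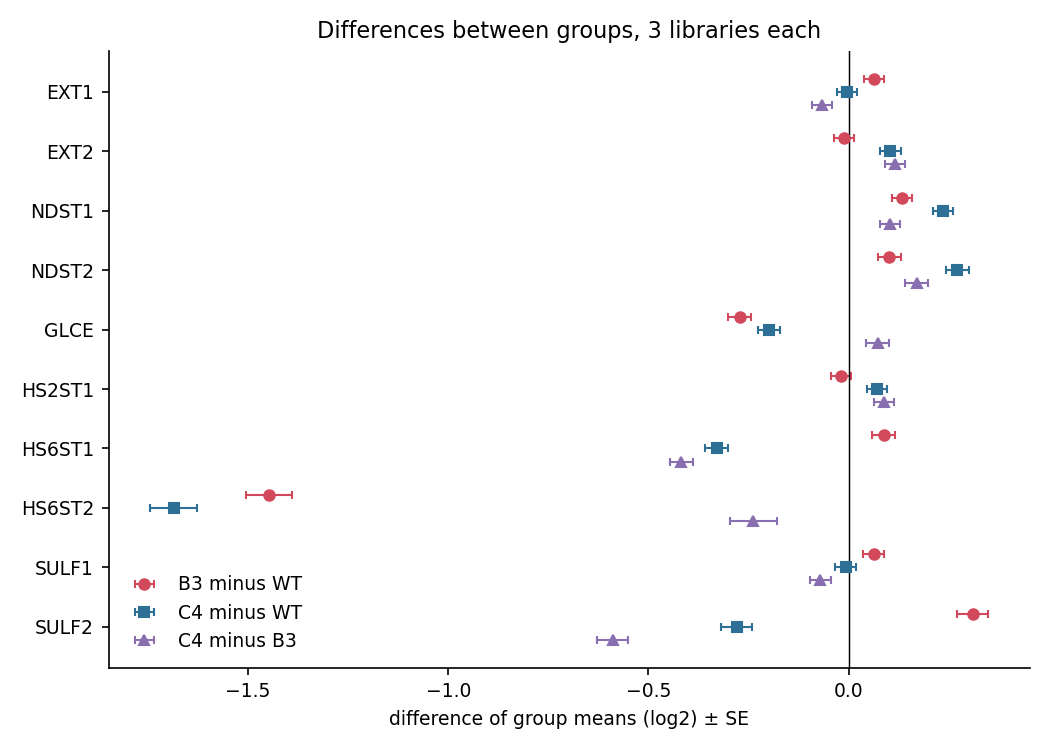
Difference of group means on the log2 scale for each gene, with points for B3 minus WT, C4 minus WT and C4 minus B3 and bars for the SE of the limma fit (n = 3 libraries per group). HS6ST2 stands at -1.45 and -1.69 against WT, and no other gene differs from WT by more than 0.33 in either direction.

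Per kilobase of exonic sequence, the antilogs in WT ran from EXT2 (4805) through HS2ST1 (2320), NDST1 (2193), EXT1 (1461), HS6ST1 (1180), GLCE (1130), NDST2 (701.3), SULF2 (583.2) and HS6ST2 (129) to SULF1 (2.26). Within WT the ranges over libraries of HS6ST1 (1155 to 1223) and GLCE (1100 to 1182) overlapped, and the other neighbours in this order did not. In C4, GLCE (963 to 996) stood above HS6ST1 (908 to 960). NDST1 stood above HS2ST1 in B3 (2408 and 2289) and in C4 (2584 and 2435), and the ranges of the 2 genes did not overlap in either line. HS6ST2 stood at 47.3 in B3, 40.1 in C4 and 129 in WT on this scale, above SULF1 in each group.

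By the limma test over all 16457 genes at an adjusted p of 0.05, 5 members were called higher and 2 lower in B3, where 23.2% and 24.6% of all tested genes were called in these directions. In C4, 4 were called higher and 4 lower, against 28.2% and 28.0% of all genes. Between the lines, 5 were called higher and 5 lower in C4 than in B3, against 28.6% and 27.8%, and the call of GLCE was lost with the replicate number as a block. The median absolute difference of the members was 0.095 for B3, 0.22 for C4 and 0.11 for C4 against B3, beside 0.073, 0.092 and 0.092 over all tested genes. Since these contrasts were known when the genes were listed, nothing is read from these counts. B3 and C4 were compared with the same 3 WT libraries, and the first of these was the highest of the WT libraries for 9 of the 10 members, against 37.6% of all tested genes. After scaling to equal library totals, the higher genes made up 64.2% of all calls in B3, against 48.5% as deposited, and 61.5% in C4, against 50.2%. The members then counted 6 higher and 2 lower in B3 and 4 higher and 4 lower in C4.

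Genes next to a member on its chromosome were compared with it, since most tested genes around 3 of the members were lower in C4. Around HS6ST1 (chromosome 2, 128236716 to 128318577, GRCh38), 30 of the 33 tested genes starting within 5 Mb were lower in C4 than in WT, with a median of -0.33, beside -0.33 for HS6ST1 itself, and 17 were at least as low as HS6ST1. Around EXT1 (chromosome 8, 117794490 to 118111853), 22 of 25 neighbours were lower in C4, with a median of -0.25, while EXT1 stood at -0.0033, above 22 of them. Around SULF1 (chromosome 8, 69466624 to 69660915), 30 of 36 neighbours were lower in C4, with a median of -0.17, against -0.0076 for SULF1. Over all tested genes, 49.6% were lower in C4 and the median was 0.0012. DNA copy number was not measured, and the part of the neighbourhood in the HS6ST1 difference was not tested.

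The neighbours of the other members had medians close to 0. HS6ST2 (chromosome X, 132626016 to 132961395) was lower than each of its 46 neighbours in both lines, and their medians were -0.014 in B3 and -0.00036 in C4. SULF2 (chromosome 20, 47656348 to 47786616) was lower in C4 beside a median of -0.00023 over 82 neighbours, of which 6 were at least as low, and in B3 it stood above 80 of them. GLCE (chromosome 15, 69160584 to 69272217) was lower in B3 than all of its 81 neighbours, whose median was -0.0018, and 6 of them were at least as low in C4. NDST1, NDST2, EXT2 and HS2ST1 had neighbour medians between 0.021 and 0.050 in B3 and between 0.0095 and 0.050 in C4. Of the 69 neighbours of NDST2, 48 were higher and 21 lower in B3, and 41 higher and 28 lower in C4. Close to NDST2, USP54 (0.33), FUT11 (0.28), ZSWIM8 (0.28) and CAMK2G (0.23) were higher in C4, while PLAU (-0.020) and VCL (-0.0043) were not. The part of the neighbourhood in the NDST2 difference was not tested.

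**Figure D3:**
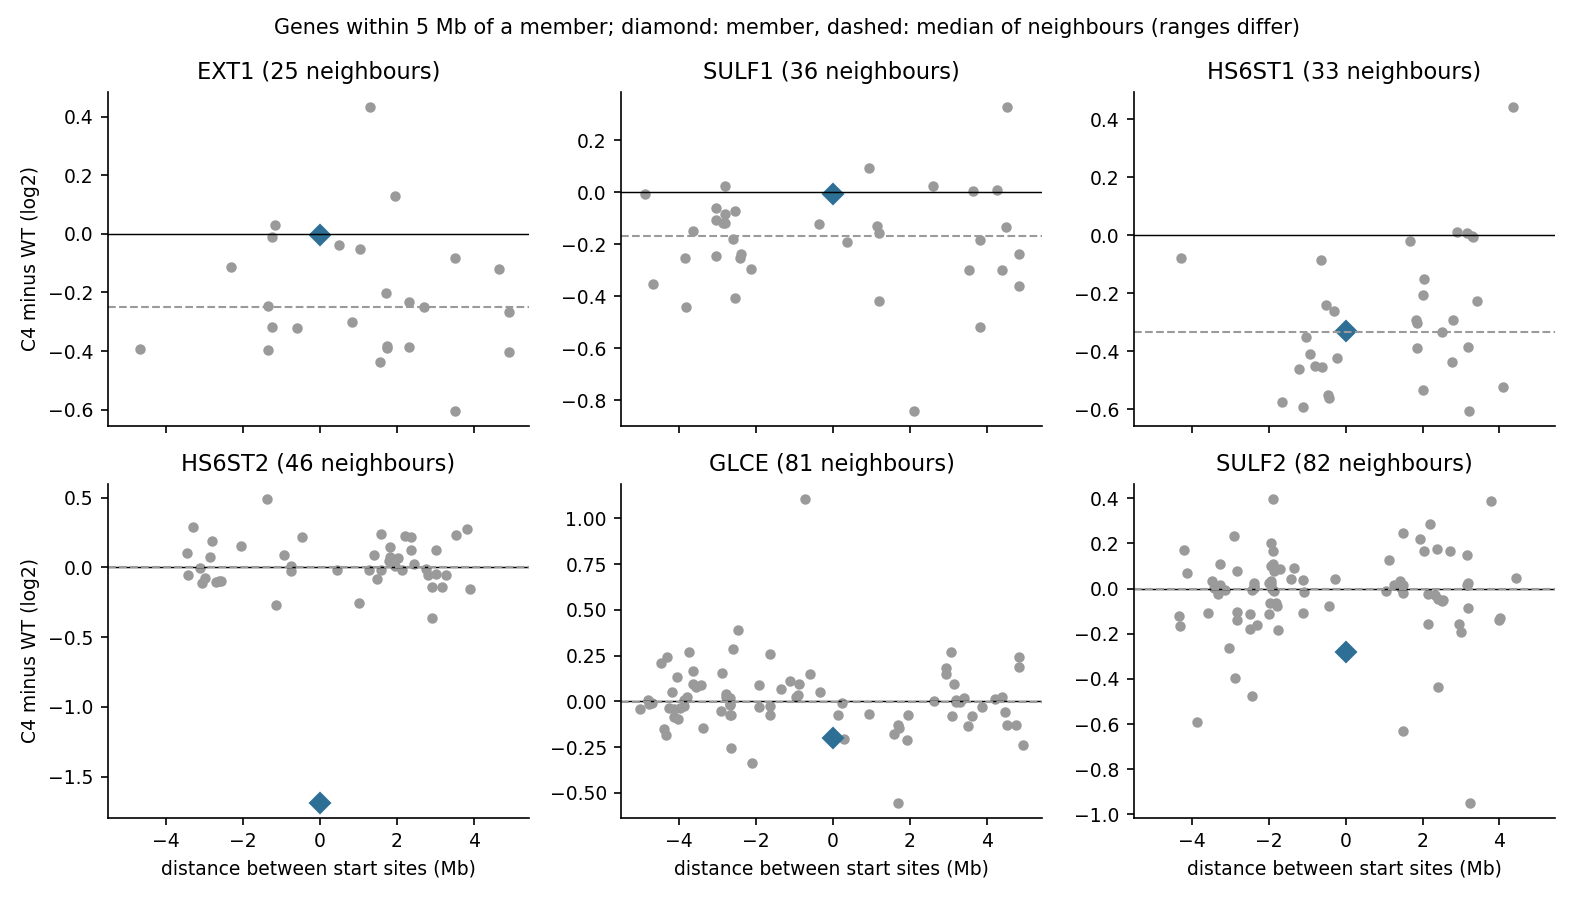
C4 minus WT on the log2 scale for genes within 5 Mb of 6 members, against the distance in Mb between start sites; the diamond is the member, grey points its neighbours, the dashed line their median and the solid line 0, with a vertical range per panel. HS6ST1 sits on the median of its neighbours at -0.33, EXT1 stands above most of its neighbours, and HS6ST2 at -1.69 lies below all of its neighbours.

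The genes whose values were most like those of HS6ST2 over the 9 libraries were RPS6KA2, a ribosomal S6 kinase gene (Pearson's r = 0.998), SELENBP1, which encodes a selenium-binding protein (0.997), the extracellular matrix gene FREM1 (0.996), LEKR1 (0.995) and the neuronal adhesion gene NEGR1 (0.995). These are the 5 highest of the tested genes once clone-based symbols were left out, and they were chosen for their likeness. The 9 points fall into 3 groups, so r mostly reflects the group means. RPS6KA2 differed from WT by -1.28 in B3 and -1.47 in C4, SELENBP1 by -1.16 and -1.31, and FREM1 by -0.77 and -0.89. LEKR1, at -0.26 and -0.30, and NEGR1, at -0.34 and -0.41, shared the pattern at smaller size. None of the 5 is on chromosome X.

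Around the 10 members, 78 further genes in 8 lists were taken from the pathway, of which 72 were tested. The lists were chosen with earlier results of these data known, and the counts and adjusted p-values do not allow for that choice. In B3, 14 rose and 32 fell, where 23.2% of all tested genes were called higher and 24.6% lower. In C4, 20 rose and 35 fell, where 28.2% of all tested genes were called higher and 28.0% lower. The same shares are the background of the counts for each list on the values as deposited. The median difference was -0.051 in B3 and -0.060 in C4, beside 0.00012 and 0.0012 over all tested genes. With every library at the same total, 15 rose and 25 fell in B3, where 5480 tested genes were called higher and 3054 lower. In C4 at the same total, 24 rose and 27 fell, where 5887 tested genes were called higher and 3684 lower. Counts for each list at the same total have these numbers, out of 16457 genes, as their background. Between the lines, 23 were higher and 25 lower in C4 than in B3. Differences that follow are from limma, with adjusted p over all 16457 genes.

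The remaining sulfotransferase genes included opposite changes in the 2 lines. HS3ST3A1, which adds the rare 3-O-sulfate, had log2 values of 11.83, 11.90 and 11.91 in B3, 10.38, 10.38 and 10.39 in C4, and 11.53, 11.43 and 11.45 in WT. It rose by 0.41 ± 0.034 in B3 (adjusted p = 9.82e-10) and fell by 1.09 ± 0.034 in C4 (adjusted p = 7.69e-18). NDST3, a further N-sulfotransferase gene, fell by 0.69 ± 0.045 in B3 (adjusted p = 1.22e-11) and fell by 0.41 ± 0.045 in C4 (adjusted p = 4.90e-08). Of the 7 tested genes of this list, 3 rose and 2 fell in B3, and 1 rose and 5 fell in C4; with every library at the same total, 3 rose and 1 fell in B3. HS3ST3A1 and HS3ST3B1 are alike in their catalytic part, so their reads may have been split between them.

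Genes of the linker that joins the chain to its core protein changed little in the deposited values, apart from PXYLP1. This xylose phosphatase gene fell by 0.40 ± 0.027 in B3 (adjusted p = 2.28e-11) and by 0.56 ± 0.027 in C4 (adjusted p = 1.91e-14). B4GALT7, a linker galactosyltransferase gene, rose by 0.14 in B3 and 0.10 in C4 (adjusted p = 0.00303 and 0.0201), a C4 call lost without WT library 2 or 3 or C4 library 3 (adjusted p = 0.0770, 0.0850 and 0.141). The weakly expressed xylosyltransferase gene XYLT1 fell by 0.13 in each line (adjusted p = 0.000169 and 0.000103). Its mean log2 values were 4.29 in B3, 4.29 in C4 and 4.42 in WT, a level where differences may be understated. Of the 7 linker genes, 1 rose and 2 fell in B3, and 2 rose and 2 fell in C4. Of the 3 EXTL genes, relatives of the polymerases, EXTL3 alone was called in B3, where it fell by 0.18 ± 0.024 (adjusted p = 1.81e-06). In C4, EXTL1 rose by 0.29 ± 0.024 and EXTL3 by 0.10 ± 0.024, and EXTL2 fell by 0.12 ± 0.028 (adjusted p = 5.16e-10, 0.00136 and 0.000527). EXTL3 in B3 lay beside 36 of 44 neighbours within 5 Mb that were lower, with a median of -0.11.

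Among the 8 genes that supply sugar and sulfate donors, 2 rose and 1 fell in B3, and 2 rose and 4 fell in C4. With every library at the same total, 3 rose and 0 fell in B3. UXS1, which makes UDP-xylose for the linker, fell by 0.88 ± 0.030 in C4 (adjusted p = 3.79e-17), where 30 of its 32 neighbours on chromosome 2 were lower, with a median of -0.30. It fell by 0.097 ± 0.030 in B3 (adjusted p = 0.0101), a call lost without WT library 1 (adjusted p = 0.0594) or B3 library 1 or 2 (0.0763 and 0.0525), and at the same total for every library (0.0835). SLC35B2, which carries the sulfate donor into the Golgi, rose by 0.31 ± 0.030 in C4 (adjusted p = 5.56e-09) and stood at 0.061 in B3 (adjusted p = 0.0984), where it was called without WT library 1 (0.10, adjusted p = 0.00238) or B3 library 1 (adjusted p = 0.0422), at the same total (0.0138) and at the same median (0.0468). BPNT2, listed under its older symbol IMPAD1, a Golgi phosphatase gene that clears the spent donor, rose by 0.11 in B3 and fell by 0.24 in C4 (adjusted p = 0.00200 and 1.03e-07). The neighbours of BPNT2, on chromosome 8, had a median of -0.22 in C4.

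Genes of heparan sulfate breakdown fell in B3 and split in C4. In B3, 0 rose and 9 of 10 fell, with a median of -0.19, and in C4, 3 rose and 5 fell. With every library at the same total, 0 rose and 6 fell in B3, and 4 rose and 4 fell in C4. GUSB, the lysosomal glucuronidase gene, fell by 0.49 ± 0.029 in B3 (adjusted p = 2.37e-12) and by 0.21 ± 0.029 in C4 (adjusted p = 1.58e-06). The sulfatase gene ARSG fell by 0.41 ± 0.049 in B3 and fell by 0.78 ± 0.049 in C4 (adjusted p = 2.38e-07 and 3.25e-12). NAGLU, the lysosomal glucosaminidase gene, rose by 0.41 ± 0.030 in C4 (adjusted p = 3.96e-11) and fell by 0.078 ± 0.030 in B3 (adjusted p = 0.0342). The B3 call of NAGLU was lost at the same total for every library (adjusted p = 0.226), at the same median (0.0692) and without WT library 1, B3 library 2 or B3 library 3 (0.190, 0.154 and 0.0535).

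Core protein genes fell for the most part in B3, with 3 of 13 higher and 9 lower and a median of -0.19, and were mixed in C4, with 3 higher and 5 lower. At the same total for every library, 5 core protein genes were higher and 4 lower in C4. The syndecan gene SDC2 fell by 0.37 ± 0.031 in B3 (adjusted p = 8.44e-10) and rose by 1.02 ± 0.031 in C4 (adjusted p = 4.43e-18). That rise stood against 42 neighbours on chromosome 8 of which 35 were lower in C4. SDC4 fell by 0.23 ± 0.025 in B3 and by 0.48 ± 0.025 in C4 (adjusted p = 5.14e-08 and 9.87e-14). The perlecan gene HSPG2 fell by 0.54 ± 0.038 in B3 (adjusted p = 6.46e-11) and fell by 0.094 ± 0.038 in C4 (adjusted p = 0.0398). The C4 call of HSPG2 was lost with the replicate number as a block (adjusted p = 0.0540), at the same total for every library (0.165), with only the compared groups (0.0553), with robust moderation (0.140), and without library 1 or 3 of WT or 1 or 2 of C4 (0.0714 to 0.281).

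**Figure D4:**
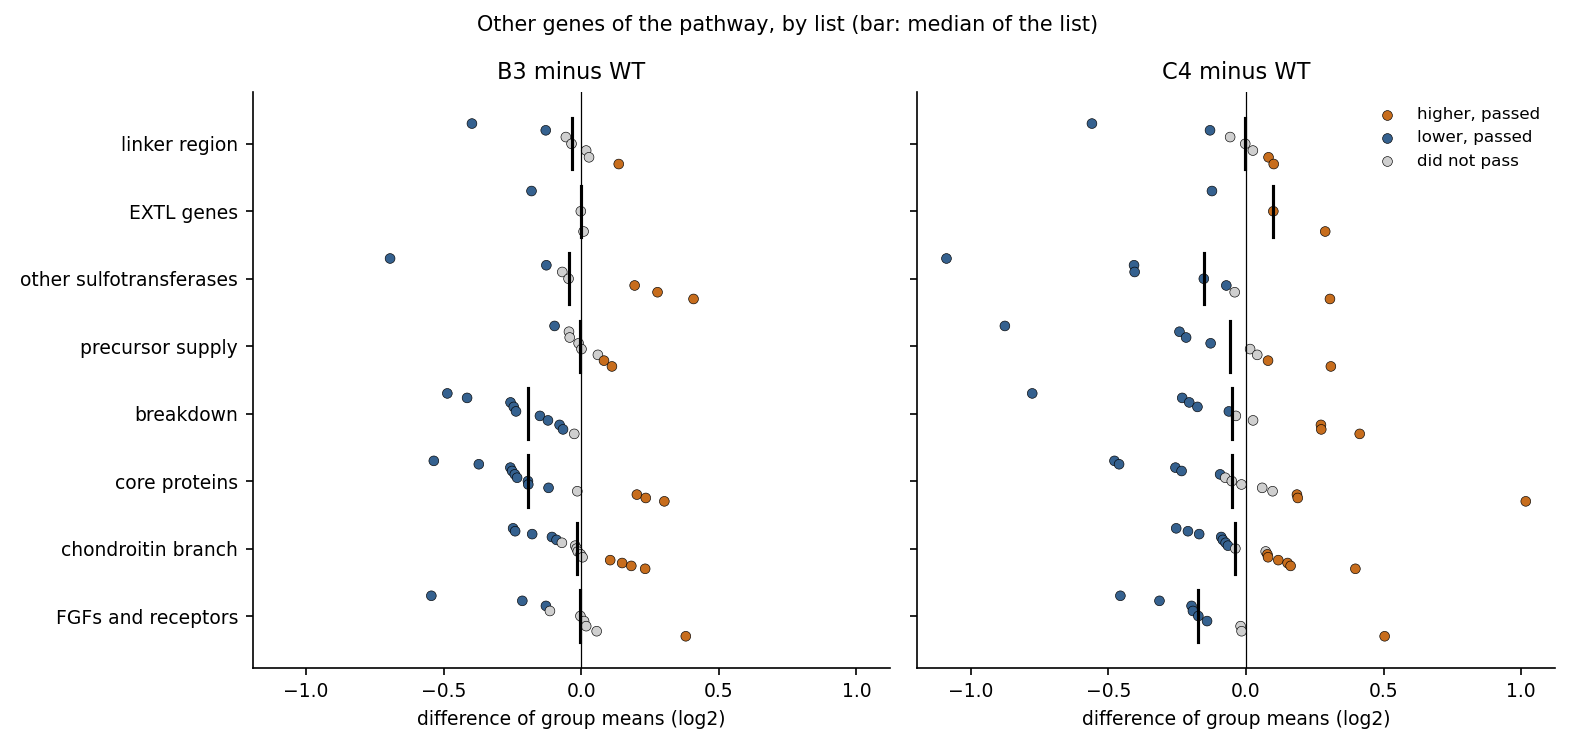
Difference from WT on the log2 scale for the 72 tested pathway genes outside the 10 members, by list, for B3 (left) and C4 (right); each point is a gene, coloured by whether limma called it at an adjusted p of 0.05, and the bar is the median of the list. Breakdown and core protein genes lie mostly below 0 in B3, at medians of -0.19, and SDC2 at 1.02 and HS3ST3A1 at -1.09 lie farthest out in C4.

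The chondroitin and dermatan sulfate branch, which competes for the same linker, was mixed: 4 of 15 rose and 5 fell in B3, and 6 rose and 7 fell in C4, or 6 and 3 in C4 with every library at the same total. The epimerase gene DSE fell by 0.24 ± 0.043 in B3 (adjusted p = 6.85e-05) and stood at 0.072 ± 0.043 in C4 (adjusted p = 0.166), where it was called without WT library 1 (0.12, adjusted p = 0.0265). Its relative DSEL rose by 0.11 ± 0.033 in B3 and by 0.40 ± 0.033 in C4 (adjusted p = 0.0112 and 4.67e-10), and its B3 call was lost without WT library 3 or B3 library 3 (adjusted p = 0.0537 and 0.0927). CHST15, a weakly expressed sulfotransferase gene, fell by 0.25 in each line (adjusted p = 1.96e-06 and 8.60e-07). Its mean log2 values were 4.95 in B3, 4.94 in C4 and 5.19 in WT, a level where replicates lay closer together and differences may be understated. Of the 9 tested genes for FGFs and their receptors, which bind heparan sulfate, 1 rose and 3 fell in B3, and 1 rose and 6 fell in C4. FGFR1 fell by 0.54 ± 0.026 in B3 and by 0.19 ± 0.026 in C4 (adjusted p = 6.26e-14 and 1.22e-06), and 41 of its 45 neighbours were lower in B3, with a median of -0.15. FGFR4 fell by 0.13 ± 0.034 in B3 and by 0.46 ± 0.034 in C4 (adjusted p = 0.00315 and 6.14e-11). The ligand gene FGF7 rose by 0.38 ± 0.056 in B3 (adjusted p = 5.18e-06) and FGF1 by 0.50 ± 0.053 in C4 (adjusted p = 2.18e-08). Neither was called in the other line, with FGF7 at -0.020 in C4 (adjusted p = 0.793) and FGF1 at 0.018 in B3 (adjusted p = 0.807).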

How the data were processed

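The tools named per the submitters' processing notes are Subread 1.6.3, DESeq2 and STAR 2.7.3a, with genome build hg38; their roles and order are not given there. The authors deposited a table of log2 values, 1 column per library, with medians of 10.62 to 10.65; how they were scaled is not given in the sources used here. The spread between replicates shrinks at low values (median SD 0.0452 at values of 8 to 12 and 0.00935 under 2), the shape of a regularized-log transform, which no label names. Counts could not be used and depth is unknown, so no interval that needs it is given. The members, lists and rules were chosen with earlier results of these data known.

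The 9 libraries entered 1 limma 3.58.1 fit (R 4.3.3) with a coefficient per group and an intensity trend, over the 16457 of 19356 genes whose antilog averaged 10 or more; tests were two-sided with Benjamini-Hochberg adjustment at 0.05. The fit was tested on simulated data. Positions and exon lengths (union of exons) are from GENCODE 29, which placed 92.6% of the tested symbols. Promoters are from RefSeq. Named genes were the members, ARNT2, up to 2 called genes per list and line with the largest difference, and the 5 genes most like HS6ST2. Each p-value reflects only how these samples vary, and that variation may be technical, since the labels name no separate cultures. Alternatives were filters, scalings, a pseudocount, a replicate block, fits of the compared groups, robust moderation and leaving out each library.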

Additional observations from a re-analysis of the deposited data

Results flagged for a closer look

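For HS6ST1 and SULF2, every B3 library lay above WT and every C4 library below WT. The difference between the lines, C4 minus B3, was -0.42 for HS6ST1 and -0.59 for SULF2 on the log2 scale. No p-value is given for it, because these genes were chosen with their values known. Of the 33 neighbours of HS6ST1 within 5 Mb, 29 were lower in C4 than in B3, with a median of -0.38. Around SULF2, 42 of 82 were lower, with a median of -0.0069.

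Of the 24 pathway genes outside the 10 members that were named by size of difference, 21 differed between C4 and B3 by limma at an adjusted p of 0.05. Of all tested genes, 28.6% were called higher and 27.8% lower. Values are C4 minus B3 on the log2 scale, and the genes had been named for large differences from WT. HS3ST3A1 differed by -1.50 and SDC2 by 1.39, each with opposite directions against WT. Among the sugar and sulfate supply genes, UXS1 differed by -0.78, BPNT2 by -0.35 and SLC35B2 by 0.25. NDST3 differed by 0.29 and PXYLP1 by -0.16. The EXTL genes differed by 0.28 (EXTL1), -0.12 (EXTL2) and 0.28 (EXTL3). Among the breakdown genes, NAGLU differed by 0.49, GUSB by 0.28 and ARSG by -0.36. HSPG2 differed by 0.44 and SDC4 by -0.25. In the chondroitin branch DSE differed by 0.31 and DSEL by 0.29. FGFR1 differed by 0.35, FGFR4 by -0.33, FGF1 by 0.49 and FGF7 by -0.40.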

How the results depend on the processing

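Counts of called genes over all genes, pathway genes and members stayed within 1.5 times under every alternative, and no called difference changed direction. Differences near 0 that were not called did: EXT2, HS2ST1, EXTL1, EXTL2 and FGF1 in B3, EXT1, SULF1 and FGF7 in C4, and XYLT1 and CHST15 for C4 against B3. EXT2 in B3 ranged from -0.034 to 0.022 and EXT1 in C4 from -0.023 to 0.026. Leaving out 1 library at a time gave 6944 to 8016 genes called in B3 and 8387 to 9272 in C4, against 7876 and 9244, and HS6ST2 differences of -1.49 to -1.39 in B3. Samples with the same number did not deviate together (correlations -0.229 to 0.0160), so these values showed no pairing by number. With 3 libraries per group a weak pairing could have been missed. With the replicate block 7504 genes were called in B3, 8961 in C4 and 9017 for C4 against B3, and 45, 52 and 47 pathway genes. With every library at the same total, 4 member differences moved by more than the spread between replicates: NDST2 (0.14) and SULF1 (0.10) in B3, and NDST1 (0.27) and NDST2 (0.30) in C4.

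Calls of members are given only as a description, since these genes were chosen with their differences known. Among members, the call of EXT1 in B3 was lost in 9 of the alternatives, that of HS6ST1 in B3 without WT library 2 or 3 or B3 library 1, and that of HS2ST1 in C4 without WT library 2 or 3 or C4 library 1 or 3. SULF1 in B3 was called in 6 alternatives. For C4 against B3, the call of GLCE was lost in 7 alternatives, the replicate block and both other scalings among them, that of EXT1 in 3 and that of SULF1 in 3. Depth is unknown, so the precision of weakly expressed genes such as SULF1 cannot be stated, and 3 libraries of 1 line per group do not separate the knockout from the line.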
